A study of Mus musculus with 12 samples.

Results

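The proteasome genes examined here were the genes on a mouse Agilent expression array whose printed gene name begins with one of the proteasome subunit stems Psma, Psmb, Psmc, Psmd, Psme, Psmf or Psmg followed by a number. The array carried 49 such genes on 62 non-control probes. The rule kept those well above background, the scanner's own detection flag, on all 3 arrays of at least 1 group, which left 47 genes and 60 probes out of 18544 genes tested in the whole series. One of the 47, Psmc3ip, shares the name stem of the ATPase Psmc3 but encodes a factor of meiotic recombination and not a proteasome subunit, so it was set apart and 46 proteasome genes remained. The 2 genes that did not pass were Psma8, an alpha subunit of the testis, and Psmb11, the catalytic subunit of the thymic cortex: their probes had raw processed signals of 3.42 to 15.4 and of 3.3 to 24.5, and Psmb11 was above background on 1 KO array at 0 h only. Psmc3ip had raw signals of 62.2 to 193 and was not called in any comparison.

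RNA came from sorted splenic regulatory T cells (Treg) of female C57BL/6 mice that were either CD83 WT or CD83cKO, a conditional deletion of the surface protein CD83, taken without activation (0 h) or after 3 h with anti-CD3 and anti-CD28 antibodies, which stand in for antigen and costimulation. The 4 groups, WT_0h, KO_0h, WT_3h and KO_3h, held 3 arrays each. The labels name neither the Cre driver nor the deleted exon. WT mice were 9 weeks old and KO mice 10 weeks, except for replicate 3 of KO_0h and replicate 3 of KO_3h, which came from mice of 21 weeks. All 6 KO arrays lay on slide 1, WT_0h on slide 2 and WT_3h on slide 3, so that genotype, and activation in WT, cannot be told apart from the slide, whereas activation in KO lay within 1 slide. The series lists 6 mice for the 12 arrays without tying an array to a mouse, so p-values measure the spread between arrays, some of which may share an animal.

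Levels are log2 processed signals relative to each array's 75th percentile, so a difference of 1 between groups is a doubling, and levels of different probes are not compared as amounts; where a pair of genes is set side by side, only the change of their difference is read. A gene was called when limma's Benjamini-Hochberg adjusted p, over all 18544 genes, was under 0.05. Cd83 was lower in KO by 1.88 at 0 h (SE 0.265, limma adjusted p = 0.0089) and by 2.50 at 3 h (adjusted p = 0.0023), as the labels state. Of the 8 Treg markers, Foxp3 was not well above background on any WT array and was on the KO arrays, against its role as the defining Treg factor, and Gpr83 was not on any WT_3h array, while the other 6 were above background on at least 1 array of each group. At 0 h, 7 of the 8 were lower in KO than in WT (median -1.45) with none called, and their summed level was 2.49 to 13.6 in KO_0h and 19.7 to 22.7 in WT_0h; their part in the genotype values was not tested. The 21-week arrays stood apart: relative to the WT_0h mean, the median T cell marker was at -1.96 on the 0 h array and -2.9 on the 3 h array, the other 4 KO arrays lying between -0.26 and -0.78, and the median plasma cell marker was at 6.13 and 6.62. Counts of called genes in KO are therefore also given without them, beside the share of all genes called in the same fit. In bulk RNA, fewer cells of a type and less RNA per cell cannot be told apart.

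The proteasome degrades proteins tagged with ubiquitin. Its 20S core is a barrel of outer alpha rings and inner beta rings, of which the subunits encoded by Psmb5, Psmb6 and Psmb7 cut peptide bonds. In immune cells and under interferon, these are replaced during assembly by the immunoproteasome subunits encoded by Psmb8, Psmb9 and Psmb10, which favour peptides suited to MHC class I. The core is opened by caps: the 19S particle, which binds ubiquitin and unfolds substrates with ATPases, the interferon-inducible PA28 alpha-beta ring (Psme1, Psme2), the nuclear PA28 gamma ring (Psme3) and PA200 (Psme4). Psmg1 to Psmg4 encode chaperones that build the alpha ring. When proteasome activity falls short, the transcription factor NRF1 (Nfe2l1) is known to raise constitutive subunit genes through antioxidant response elements, together with small MAF partners.

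Promoter windows of 300 bases, from 250 before to 50 after the annotated start, were matched in RefSeq (GRCm38.p6) for 39 of the 46 genes and searched on both strands for 4 short motifs. The antioxidant response core TGACNNNGC was found in 6 of the 39 (15.4%, against 14.0% of 27025 genes with a window), the interferon response core GAAANNGAA in 7 (17.9%, against 9.76%), the palindrome CGCATGCG of the nuclear respiratory factor site in 2 (5.13%, against 2.07%) and the Ets site CCGGAAGT in 9 (23.1%, against 4.31%). These shares describe letters and were not tested. The 6 windows shown are those of the immunoproteasome genes and Psme1, all lower after activation, and of Psmd12 and Psme4, both higher after activation in WT; capitals mark every motif match.
Psmb8, chr17:34197945-34198244, plus strand: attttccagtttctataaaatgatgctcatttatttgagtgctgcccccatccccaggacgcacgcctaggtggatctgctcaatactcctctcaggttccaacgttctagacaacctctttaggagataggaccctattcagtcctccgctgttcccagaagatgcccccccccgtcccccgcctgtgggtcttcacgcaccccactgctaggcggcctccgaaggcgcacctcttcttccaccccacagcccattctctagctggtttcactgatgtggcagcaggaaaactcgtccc
Psmb9, chr17:34187281-34187580, minus strand: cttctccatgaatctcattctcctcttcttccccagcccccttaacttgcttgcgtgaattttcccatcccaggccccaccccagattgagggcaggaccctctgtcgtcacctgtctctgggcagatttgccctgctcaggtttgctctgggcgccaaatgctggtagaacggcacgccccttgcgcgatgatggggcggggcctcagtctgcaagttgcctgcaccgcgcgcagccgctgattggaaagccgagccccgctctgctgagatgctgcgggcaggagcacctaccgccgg
Psmb10, chr8:105938343-105938642, minus strand: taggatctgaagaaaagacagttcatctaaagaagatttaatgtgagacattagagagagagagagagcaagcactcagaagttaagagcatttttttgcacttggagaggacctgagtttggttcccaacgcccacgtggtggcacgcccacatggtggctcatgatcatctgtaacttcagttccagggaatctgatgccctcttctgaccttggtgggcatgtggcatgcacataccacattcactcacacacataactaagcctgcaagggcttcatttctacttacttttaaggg
Psme1, chr14:55578244-55578543, plus strand: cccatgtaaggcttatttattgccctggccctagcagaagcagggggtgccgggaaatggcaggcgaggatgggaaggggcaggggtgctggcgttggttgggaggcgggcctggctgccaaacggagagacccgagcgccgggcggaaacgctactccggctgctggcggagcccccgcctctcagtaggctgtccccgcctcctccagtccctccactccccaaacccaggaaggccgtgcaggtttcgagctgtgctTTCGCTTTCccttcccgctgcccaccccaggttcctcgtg
Psmd12, chr11:107479278-107479577, plus strand: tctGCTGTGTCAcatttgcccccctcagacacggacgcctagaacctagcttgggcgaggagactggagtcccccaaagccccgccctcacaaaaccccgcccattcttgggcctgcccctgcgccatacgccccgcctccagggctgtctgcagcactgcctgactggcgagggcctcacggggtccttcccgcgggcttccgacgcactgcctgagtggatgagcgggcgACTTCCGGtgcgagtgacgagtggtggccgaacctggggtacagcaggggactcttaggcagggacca
Psme4, chr11:30771525-30771824, plus strand: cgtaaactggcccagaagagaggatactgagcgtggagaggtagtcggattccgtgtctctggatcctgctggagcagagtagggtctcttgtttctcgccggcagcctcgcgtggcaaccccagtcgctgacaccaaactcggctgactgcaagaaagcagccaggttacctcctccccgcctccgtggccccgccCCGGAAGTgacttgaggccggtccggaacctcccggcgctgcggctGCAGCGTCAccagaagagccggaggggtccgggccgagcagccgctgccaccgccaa
None of the 4 motifs matched in the windows of Psmb8, Psmb9 and Psmb10, while Psme1 holds an interferon response core just after its start. Psmd12 and Psme4 each hold an antioxidant response core and an Ets site, in different order. No match says only that these letters are absent from this window.

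The first question was how activation moves the proteasome genes of WT Treg. After 3 h, the 3 immunoproteasome subunits, PA28 alpha-beta and 3 of the 4 assembly chaperones of the core were lower, several 19S subunits and the activators PA28 gamma and PA200 were higher, and no constitutive 20S subunit was called. Of the 46 genes, 9 were called higher and 8 lower, or 17 in all, while of all genes 13.3% were called higher and 16.6% lower. The members' median difference was 0.11, with a range from -1.56 to 1.20, beside -0.136 for all genes. The WT_3h arrays lay wholly above the WT_0h arrays for 22 members and wholly below for 12, beside 29% and 39.5% of all genes. Leaving out the 21-week arrays raised the counts to 16 higher and 10 lower, beside 24.2% and 31.6% of all genes. The number of calls is therefore near that of the array as a whole; what follows is how the calls were spread over the parts of the complex.

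**Figure D1:**
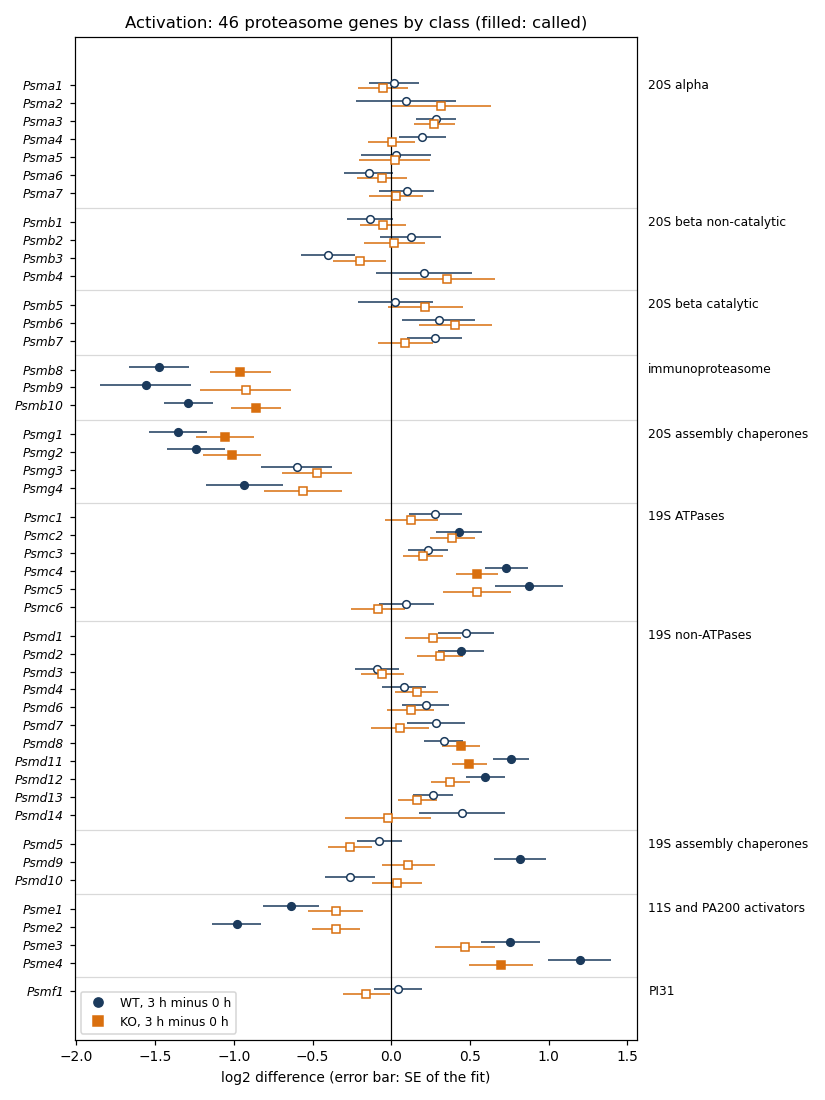
Log2 difference, 3 h minus 0 h, of the 46 proteasome genes in WT (circles) and KO (squares), grouped by class, with the SE of the fit over 12 arrays as error bars and filled symbols for genes called at an adjusted p under 0.05. The immunoproteasome and 20S chaperone genes lie left of 0 in both genotypes, the 14 constitutive core genes lie between -0.40 and 0.41, and 16 of 17 19S subunits lie right of 0 in WT.

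All 3 immunoproteasome genes fell in WT. Psmb8, which encodes the chymotrypsin-like immunosubunit beta-5i, stood at 3.49, 3.30 and 3.33 on the WT_0h arrays and at 2.02, 1.85 and 1.82 on the WT_3h arrays. The groups did not overlap, and the mean was 2.78-fold lower (log2 difference -1.48, SE 0.193, limma adjusted p = 0.000684). Psmb9, the beta-1i subunit, gave 3.34, 3.21 and 3.28 before and 1.89, 1.72 and 1.54 after activation, a difference of -1.56 (SE 0.288, limma adjusted p = 0.00349). For Psmb10, the beta-2i subunit, levels of 4.22, 4.02 and 4.06 became 3.04, 2.76 and 2.64, again without overlap (-1.29, SE 0.156, limma adjusted p = 0.00048). The Psmb8 and Psmb9 probes map to chromosome 17, where both genes lie in the MHC region beside Tap1 and Tap2, and the Psmb10 probe to chromosome 8.

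In KO the same genes were lower at 3 h, with a wider spread. Psmb8 stood at 2.87, 2.92 and 2.91 on the KO_0h arrays and at 1.78, 1.63 and 2.40 on the KO_3h arrays, the last value being the 21-week array; the difference was -0.96 (SE 0.193, limma adjusted p = 0.00934). Psmb10 went from 3.63, 3.62 and 3.71 to 2.81, 2.60 and 2.97 (-0.86, SE 0.156, limma adjusted p = 0.00618). Psmb9 went from 2.93, 2.93 and 3.07 to 1.75, 1.56 and 2.85. For Psmb9 the groups did not overlap, but the 21-week array at 3 h lay just under the lowest 0 h array, and the difference of -0.92 missed the threshold (SE 0.288, limma adjusted p = 0.0529). With the 21-week arrays left out all 3 passed, at -1.19 for Psmb8, -1.28 for Psmb9 (limma adjusted p = 0.000233) and -0.92 for Psmb10. In that fit 25.9% of all genes were called lower in KO.

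**Figure D2:**
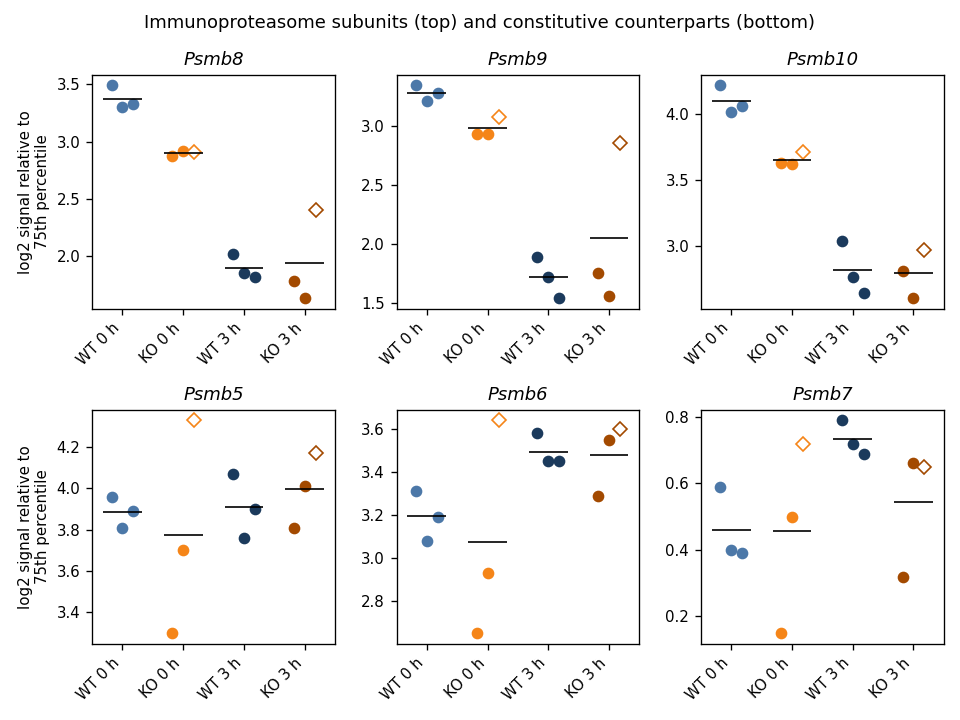
Log2 level on each array for Psmb8, Psmb9 and Psmb10 (top) and the constitutive subunits they replace, Psmb5, Psmb6 and Psmb7 (bottom), with a line at each group mean; open diamonds are the 21-week arrays. Each immunoproteasome gene is lower on every 3 h array than on every 0 h array of its genotype, while the counterparts overlap or lie slightly higher; each panel has its own axis range.

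The constitutive counterparts did not follow. Psmb5 stood at 3.96, 3.81 and 3.89 in WT_0h and at 4.07, 3.76 and 3.90 in WT_3h, fully overlapping (0.03, SE 0.238, limma adjusted p = 0.953). Psmb6 gave 3.31, 3.08 and 3.19 against 3.58, 3.45 and 3.45 (0.30, limma adjusted p = 0.359), and Psmb7 0.59, 0.40 and 0.39 against 0.79, 0.72 and 0.69 (0.28, limma adjusted p = 0.265). In both, the 3 h arrays lay above the 0 h arrays by less than the test resolves. In KO, Psmb5 read 3.30, 3.70 and 4.33 at 0 h and 3.81, 4.01 and 4.17 at 3 h, with replicate 1 lowest and the 21-week replicate highest at both times. Psmb6 read 2.65, 2.93 and 3.64 and then 3.29, 3.55 and 3.60, and Psmb7 0.15, 0.50 and 0.72 and then 0.32, 0.66 and 0.65. These overlaps left all 3 uncalled in KO. Without the 21-week arrays Psmb6 alone was called there, at 0.63 (limma adjusted p = 0.00897), beside 20.2% of all genes called higher.

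The shift within each array was measured as the level of an immunosubunit minus that of its counterpart, which cancels any scaling of the array. Psmb8 minus Psmb5 changed by -1.50 with activation in WT and by -1.18 in KO, Psmb9 minus Psmb6 by -1.86 and -1.33, and Psmb10 minus Psmb7 by -1.56 and -0.95. In each of these 6 cases every 3 h array lay below every 0 h array, which gives a two-sided exact permutation p of 0.1, the smallest that 3 against 3 arrays allow (0.171 adjusted over the 12 tests). The KO_3h arrays spread widely, from -0.75 on the 21-week array to -2 for Psmb9 minus Psmb6.

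Among the other 11 constitutive core genes, the 7 alpha subunits moved between -0.14 and 0.28 in WT and between -0.06 and 0.32 in KO, and the 4 non-catalytic beta subunits between -0.40 and 0.21 and between -0.20 and 0.36. With limma, 0 of the 14 constitutive core genes were called in either genotype. Of all genes, 13.3% were called higher and 16.6% lower in WT, and 7.38% and 9.79% in KO. At an unadjusted p under 0.05 the count was 1 in WT, Psmb3 at -0.40, and 0 in KO, beside 41.3% and 32.3% of all genes in either direction. Without the 21-week arrays 1 was called higher (Psma3, 0.28) and 1 lower (Psmb3) in WT, beside 24.2% and 31.6% of all genes. Array KO_0h replicate 1 was low for several core genes: Psma2 stood at 2.06 there against 3.31 and 3.41 on the other KO_0h arrays, and Psmb4 at 2.37 against 3.41 and 3.79. The labels say that the sample named 1 at 0 h was amplified from less RNA than the others, without giving its genotype; its part in the result was not tested.

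Of the 4 assembly chaperone genes of the core, 3 fell in WT and 2 in KO, beside 16.6% and 9.79% of all genes called lower; without the 21-week arrays these were 4 and 3, beside 31.6% and 25.9%. Psmg1, which pairs with Psmg2 to seed the alpha ring, stood at 1.10, 1.04 and 0.99 in WT_0h and at -0.29, -0.20 and -0.43 in WT_3h, a 2.56-fold lower mean (-1.35, SE 0.184, limma adjusted p = 0.0008). The KO arrays gave 0.90, 0.91 and 1.17 before and -0.27, -0.25 and 0.34 after activation (-1.06, limma adjusted p = 0.00528). Psmg2 gave -1.07, -1.0 and -1.10 against -2.26, -2.36 and -2.27 in WT (-1.24, SE 0.185, limma adjusted p = 0.00123). In KO it gave -0.85, -0.85 and -0.71 against -2.15, -1.90 and -1.39 (-1.01, limma adjusted p = 0.00644). No group overlapped between the times for either gene, and in KO_3h the 21-week array was the highest for both. Psmg4, which works with Psmg3, fell in WT (-0.93, limma adjusted p = 0.0177; the call ended without WT_0h replicate 1 or 2 or WT_3h replicate 2 or 3) and had a difference of -0.56 in KO (limma adjusted p = 0.145), and Psmg3 gave -0.60 and -0.47, neither called. The class median was -1.09 in WT and -0.79 in KO.

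The 19S regulatory particle leaned upwards. In WT, 6 of its 17 subunit genes were called higher and 0 lower, with a median of 0.33, beside 13.3% and 16.6% of all genes, and 16 of 17 differences were above 0. In KO, 3 of 17 were called higher and 0 lower, with a median of 0.20, beside 7.38% and 9.79% of all genes. Without scaling of the arrays to each other, 0 of the 17 were called in WT (median 0.41), beside 6.27% of all genes called higher. In KO that fit also called 0 (median -0.10, beside -0.34 for all genes), with 1.45% of all genes called higher and 11.8% lower. Groups were fully separate for 14 of the 17 in WT and for 8 in KO, all upwards, beside 29% and 10.9% of all genes. With those arrays left out the counts rose to 12 of 17 in WT and 8 of 17 in KO, all higher, beside 24.2% of all genes called higher in WT and 20.2% in KO.

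Psmd11, a scaffold subunit of the 19S lid whose level is known to set how much 26S proteasome is assembled in stem cells, had the largest test statistic among the rises in both genotypes. It stood at -0.61, -0.62 and -0.71 in WT_0h and at 0.16, 0.08 and 0.11 in WT_3h (0.76, SE 0.114, limma adjusted p = 0.00126). The KO arrays read -0.45, -0.44 and -0.49 and then 0.04, 0.01 and 0.06 (0.50, limma adjusted p = 0.0162), with the 21-week arrays among the rest. Psmc4, a base ATPase, went from 1.43, 1.33 and 1.37 to 2.11 on all 3 arrays in WT (0.73, SE 0.136, limma adjusted p = 0.00361). In KO Psmc4 went from 1.30, 1.32 and 1.39 to 1.96, 2.04 and 1.65, the 21-week array again the odd one (0.55, limma adjusted p = 0.023). Psmd8, another lid subunit, was called in KO, where 0.53, 0.60 and 0.70 became 0.99, 1.02 and 1.16 (0.44, SE 0.122, limma adjusted p = 0.034). In WT, Psmd8 went from 0.77, 0.72 and 0.78 to 1.15, 1.03 and 1.10 without overlap, and at 0.33 missed the threshold (limma adjusted p = 0.0658).

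The other 19S genes called higher in WT were the ATPases Psmc5 (0.87) and Psmc2 (0.43), the lid subunit Psmd12 (0.60) and the ubiquitin-shuttle docking subunit Psmd2 (0.44). The calls of Psmd2 and Psmc2 ended when any 1 WT array was left out, with values of 0.39 to 0.52 and of 0.39 to 0.48, and that of Psmc5 ended without WT_0h replicate 1 (0.68). Their KO differences were 0.55, 0.39, 0.38 and 0.31, none called. With the 21-week arrays left out all 4 were called in KO, at 0.81, 0.44, 0.45 and 0.43. In that fit 20.2% of all genes were called higher in KO. For Psmc5 the KO_3h arrays read 1.09, 1.16 and 0.51, and the 21-week array alone was at the 0 h level. The 11 uncalled 19S subunits in WT lay between -0.09 (Psmd3) and 0.47 (Psmd1); among them is Psmd14, the deubiquitinating subunit, at 0.45. Of the 3 chaperones that build the 19S base, Psmd9 alone was called: it went from -1.66, -1.75 and -1.79 to -0.98, -0.88 and -0.89 in WT (0.82, SE 0.166, limma adjusted p = 0.00546). In KO Psmd9 read -1.56, -1.22 and -1.27 and then -1.47, -0.94 and -1.30, overlapping in part (0.11, limma adjusted p = 0.704). Psmd5 and Psmd10, which also bind base ATPases, were at -0.08 and -0.26 in WT, uncalled.

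The activators split by partner. Psme1, the PA28 alpha subunit, stood at 3.85, 3.51 and 3.66 in WT_0h and at 3.15, 2.90 and 3.06 in WT_3h, and was lower (-0.64, SE 0.176, limma adjusted p = 0.0217), a call that ended without WT_0h replicate 1 or 3 or WT_3h replicate 2 or 3 (-0.55 to -0.65). Its KO arrays read 3.44, 3.20 and 2.98 and then 3.08, 2.73 and 2.75, which overlap (-0.35, limma adjusted p = 0.195). Psme2, the PA28 beta subunit, stood at 4.63, 4.55 and 4.63 in WT_0h and at 3.81, 3.53 and 3.52 in WT_3h (-0.98, SE 0.154, limma adjusted p = 0.0016). For Psme2 in KO, 4.22, 4.12 and 3.99 were followed by 3.77, 3.54 and 3.96, separate only narrowly, the 21-week arrays lying closest (-0.35, limma adjusted p = 0.146); without the 21-week arrays it was called there, at -0.51 (limma adjusted p = 0.0162). The Psme2 probe also matches a near-identical gene copy, Psme2b, so its signal may be shared.

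Psme3, whose product forms the nuclear PA28 gamma ring, rose in WT from -2.24, -2.44 and -2.45 to -1.53, -1.41 and -1.93 (0.76, SE 0.189, limma adjusted p = 0.0141). That call ended without WT_0h replicate 2 or 3 or WT_3h replicate 1 or 2, with values of 0.65 to 0.72. In KO, -2.53, -2.14 and -2.06 became -1.91, -1.62 and -1.80, higher on every 3 h array without passing the test (0.47, limma adjusted p = 0.118). Psme4, which encodes PA200, had the largest rise of all members in WT: -3.09, -2.84 and -2.92 became -1.92, -1.61 and -1.73 (1.20, SE 0.201, limma adjusted p = 0.00228), or 2.29-fold. In KO it went from -2.11, -2.92 and -2.60 to -1.87, -1.79 and -1.88 (0.70, limma adjusted p = 0.0406). The KO_0h arrays were widely spread for this probe, and leaving out KO_0h replicate 2 ended the call (0.51, limma adjusted p = 0.132). A second Psme4 probe, tested on its own, gave 0.89 in WT (limma adjusted p = 0.006) and 0.91 in KO (limma adjusted p = 0.00965). Psmf1, the PI31 regulator, was at 0.04 in WT and -0.16 in KO.

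**Figure D3:**
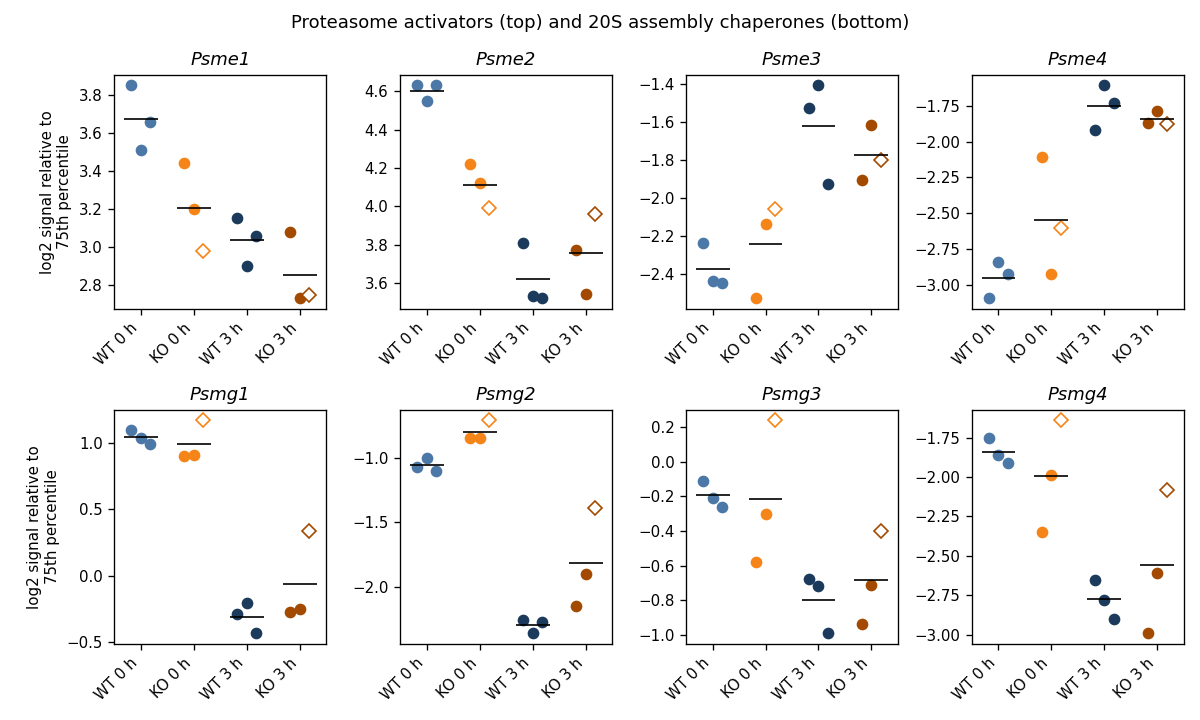
Log2 level on each array for the activator genes Psme1 to Psme4 (top) and the 20S assembly chaperone genes Psmg1 to Psmg4 (bottom), with a line at each group mean and open diamonds for the 21-week arrays; each panel has its own axis range. In WT, Psme1 and Psme2 are lower at 3 h and Psme3 and Psme4 higher, and in KO Psme1 overlaps between the times; Psmg1 and Psmg2 are lower on every 3 h array than on any 0 h array of their genotype.

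In KO the calls over all 46 genes were 4 higher (Psmd11, Psmc4, Psmd8, Psme4) and 4 lower (Psmg1, Psmb10, Psmg2, Psmb8), or 10 and 8 without the 21-week arrays, when 20.2% of all genes were called higher and 25.9% lower. The KO groups were fully separate for 11 members upwards and 6 downwards, beside 10.9% and 13.5% of all genes. The 4 rises depended more on single arrays. Fitting only the 2 KO groups called 0 of the 46 genes in either direction, beside 0.232% of all genes higher and 0.329% lower. Fitting only the 2 WT groups called 20 of the 46 higher in WT, beside 25.7% of all genes. The fit of all arrays shares 1 estimate of the spread. The members' median SD was 0.18 in each KO group and 0.07 in each WT group. Leaving out KO_0h replicate 2 left 0 rises in KO, and leaving out KO_3h replicate 1 or KO_3h replicate 2 left 1. Without KO_0h replicate 1 or any 1 WT array 2 were left, and without either 21-week array there were 7. The shares of all genes called in the fits without 1 array are not given here, so a change in count may be one of the whole array. The calls of Psmg1, Psmb10, Psmg2 and Psmb8 held without any 1 array.

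Markers of some other cells moved with activation as well. Of 10 monocyte and macrophage markers tested, 8 were called lower in WT and 7 in KO, beside 16.6% and 9.79% of all genes. Without the 21-week arrays these were 9 and 8, beside 31.6% and 25.9%. The summed level of the list ranged from 4.49 to 7.95 in WT_0h, 0.908 to 1.21 in WT_3h, 23.1 to 33.5 in KO_0h and 4.04 to 8.02 in KO_3h, in units of each array's 75th percentile. None of the 10 was below background on all arrays of a group. In the fit of all arrays, 2 of 4 NK cell markers and 1 of 2 CD8 T cell markers were called lower in each genotype. Of 6 dendritic cell markers, 1 was called higher and 2 lower in each genotype. Of all genes, 13.3% were called higher in WT and 7.38% in KO. Without the 21-week arrays the counts lower in KO were 2, 2 and 4, beside 25.9% of all genes. The B cell, plasma cell, neutrophil, erythroid and platelet lists had 0 called with activation in either genotype in the fit of all arrays. The median T cell marker was at -0.74 in WT and -0.73 in KO. The part of these marker changes in the fall of the immunoproteasome genes was not tested. At 0 h, 8 of the 10 monocyte and macrophage markers were called higher in KO than in WT (median 2.11), beside 1.82% of all genes. Other lists differed at 0 h as well. Medians were 3.6 for plasma cell, 2.97 for erythroid and 2.47 for dendritic cell markers, with 0, 0 and 1 called, and -0.85 for T cell markers, with 0 called. Their part in the genotype values of the proteasome genes was not tested.

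The second question was whether the genotypes differ. With limma, 0 of the 46 genes were called in either direction at 0 h, while 1.82% of all genes were called higher and 0.259% lower in KO, and 0 at 3 h, beside 1.26% and 0.189%. At an unadjusted p under 0.05 the counts were 1 higher and 4 lower at 0 h, and 1 and 1 at 3 h, while 15.4% and 10.6% of all genes passed that threshold in either direction. Leaving out the 21-week arrays gave 0 higher and 1 lower at 0 h, beside 4.71% and 1.91% of all genes, and 0 in both directions at 3 h, beside 1.39% and 0.588%. At 0 h the differences ranged from -0.49 to 0.40, and at 3 h from -0.44 to 0.49, with medians of -0.05 and -0.04. The KO arrays lay wholly above the WT arrays for 8 members and wholly below for 7 at 0 h, beside 16.9% and 14.8% of all genes, and for 1 and 8 at 3 h, beside 11.8% and 7.39%.

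At 0 h the 4 lowest differences belonged to genes of the immunoproteasome and PA28, followed by the alpha subunit Psma2 at -0.42. Psme2 was at -0.49 (SE 0.154, limma adjusted p = 0.159), Psmb8 at -0.48 (adjusted p = 0.275), Psme1 at -0.47 (adjusted p = 0.24), Psmb10 at -0.45 (adjusted p = 0.199) and Psmb9 at -0.30 (adjusted p = 0.652). The KO_0h arrays lay below all WT_0h arrays for all 5, as they did for 14.8% of all genes. Without the 21-week arrays Psmb8 was called lower in KO (-0.48, limma adjusted p = 0.0423), beside 1.91% of all genes. In that fit the lowest differences were those of the core genes Psma2 (-0.66) and Psmb4 (-0.55), not called. Psmb3 and Psmb6 were at -0.40 and Psmb5 at -0.38, beside -0.48 for Psmb10, -0.43 for Psme2 and -0.35 for Psmb9 and Psme1. With all arrays, the within-array difference between genotypes was -0.37 for Psmb8 minus Psmb5, -0.19 for Psmb9 minus Psmb6 and -0.44 for Psmb10 minus Psmb7. The groups were separate for Psmb10 minus Psmb7 only (exact permutation p = 0.1, the smallest possible, 0.171 adjusted). Leaving out 1 array at a time, the highest values came without KO_0h replicate 3, at -0.1, 0.05 and -0.34. The lowest came without KO_0h replicate 1, at -0.59, -0.38 and -0.58. The largest positive test statistics at 0 h were those of Psmd9 (0.38, limma adjusted p = 0.308), for which every KO_0h array lay above every WT_0h array, and of the base chaperone Psmd5 (0.30, adjusted p = 0.348), which read -0.67, -0.78 and -1.0 in KO and -1.23, -1.07 and -1.06 in WT.

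By 3 h the immunoproteasome genes of both genotypes overlapped, with KO minus WT differences of 0.04 for Psmb8, 0.34 for Psmb9 and -0.02 for Psmb10. These were -0.19, -0.06 and -0.11 without the 21-week arrays, so that the sign turned for Psmb8 and Psmb9. The members farthest from 0 by test statistic were the chaperones Psmg2 (0.49, limma adjusted p = 0.377) and Psmg1 (0.25, adjusted p = 0.612; 0.04 without the 21-week arrays) upwards and Psma4 (-0.34, adjusted p = 0.467) and Psmd9 (-0.33, adjusted p = 0.519) downwards. Psma4, an alpha ring subunit, read 0.72, 0.62 and 0.77 in WT_3h and 0.41, 0.46 and 0.22 in KO_3h, and before activation 0.50, 0.47 and 0.55 in WT and 0.63, 0.22 and 0.24 in KO. The 2 groups were separate at 3 h and not at 0 h.

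**Figure D4:**
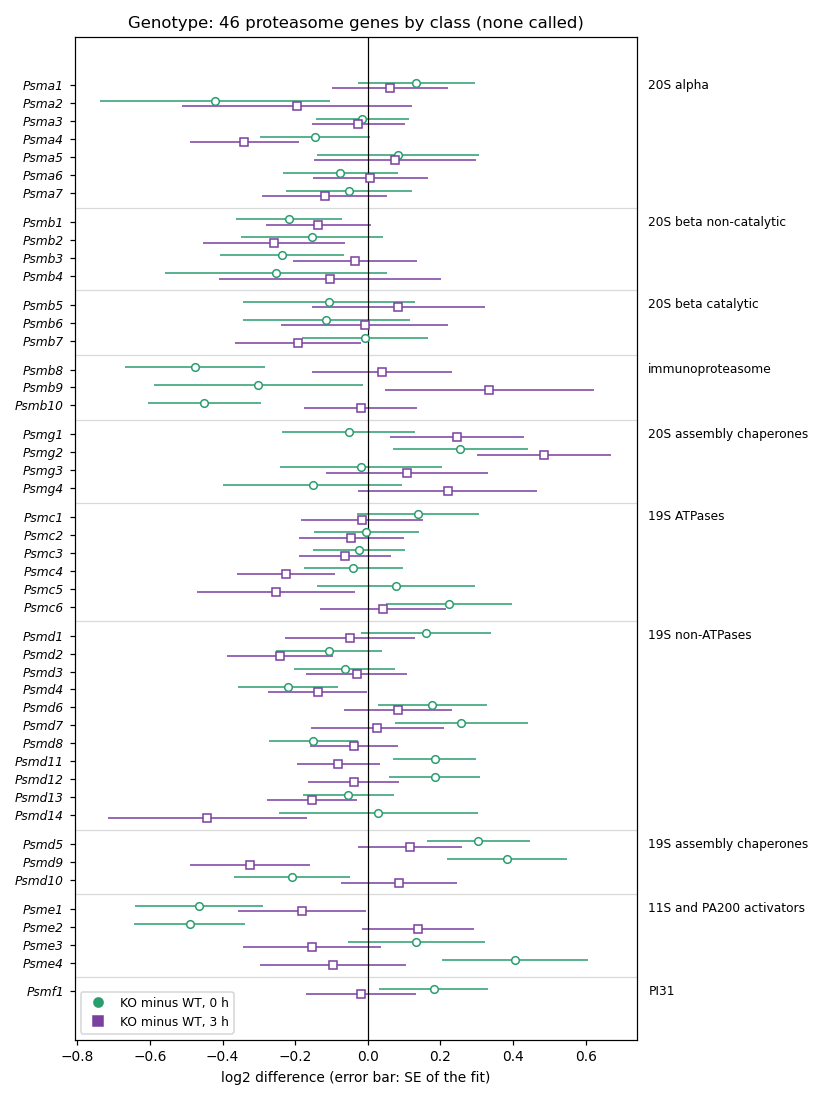
Log2 difference, KO minus WT, of the 46 proteasome genes at 0 h (circles) and 3 h (squares), grouped by class, with the SE of the fit over 12 arrays as error bars; open symbols show that none was called. Psmb8, Psmb10, Psme1 and Psme2 lie between -0.49 and -0.45 at 0 h, and all members lie within 0.49 of 0 at both times.

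Activation was also compared between genotypes directly, as the KO difference minus the WT difference. With limma, 0 of the 46 genes and 0% of all genes were called, and at an unadjusted p under 0.05 there were 687 among all genes, with 1 higher and 1 lower among the members. Psme2 was at 0.63 (SE 0.218, limma adjusted p = 1), and Psmd9 was at -0.71 (SE 0.235, limma adjusted p = 1). The immunoproteasome values were 0.52 for Psmb8, 0.64 for Psmb9 and 0.43 for Psmb10, and Psme4 was at -0.50 by its brightest probe and at 0.02 by its other probe. With the 21-week arrays left out, the immunoproteasome median of 0.52 dropped to 0.29.

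Arrays of the WT groups agreed more closely than those of the KO groups. The median SD of a proteasome gene over the 3 arrays was 0.07 in WT_0h and in WT_3h and 0.18 in KO_0h and in KO_3h, beside 0.14, 0.14, 0.39 and 0.46 for all genes. The widest member was Psma2 in KO_0h (SD 0.75), and in KO_3h it was Psmb9 (SD 0.70).

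Where a member had more than 1 probe that passed, the brightest was used. In WT all probes of a gene gave differences of 1 sign for all 12 such genes, and in KO for 9. For Psme4, Psmg1, Psmd12, Psmd9 and Psmc2 the other probe gave 0.89, -1.28, 0.79, 0.59 and 0.41 in WT. The 2 Psmc2 probes overlap in position. Tested on their own, neither passed in WT (limma adjusted p = 0.0547 for the brighter and 0.0714 for the other). With each probe tested on its own, the second probes of Psmc3 (0.40, limma adjusted p = 0.0394) and Psmd10 (-0.56, limma adjusted p = 0.04) passed in WT where the brighter ones did not. The probes of Psmb9 differed most in size: its dimmer probe, listed for a different transcript, had raw signals of 60.6 to 207 against 7530 to 26600 for the brighter one, and differences of -0.26 in WT and 0.09 in KO. Averaging both probes gave -0.91 in WT and ended the call (limma adjusted p = 0.0532).

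Genes around the proteasome were read from further lists. Of 14 tested genes for maturation, further subunits and bound factors, 8 were called higher and 1 lower in WT, beside 13.3% and 16.6% of all genes, and 5 and 0 in KO, beside 7.38% and 9.79%. The KO counts were 7 and 1 without the 21-week arrays (20.2% and 25.9% of all genes). The rises included Zfand5, which activates the 26S proteasome: -0.45, -0.22 and -0.18 became 0.82, 0.68 and 0.81 in WT (1.05, SE 0.146, limma adjusted p = 0.000887), and in KO it rose by 0.89. The ubiquitin shuttle Ubqln1 rose by 1.11 in WT and 0.72 in KO, and Zfand2a, an arsenite-inducible partner, by 1.42 and 1.55. Adrm1, a 19S ubiquitin receptor, rose in WT (0.68, limma adjusted p = 0.00473). Pomp, the maturation protein that helps to join the parts of the core, was the one that fell: 1.91, 1.61 and 1.64 became 0.90, 0.71 and 0.99 in WT (-0.86, SE 0.171, limma adjusted p = 0.00511), with -0.47 in KO (limma adjusted p = 0.0861).

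Of 12 tested genes of the NRF1 pathway, 7 were called higher and 1 lower in WT, and 5 and 0 in KO, beside the same shares of all genes (13.3% and 16.6%, 7.38% and 9.79%). The KO counts without the 21-week arrays were 9 and 2, beside 20.2% and 25.9% of all genes in that fit. Nfe2l1 itself went from -4.20, -4.22 and -4.31 to -3.32, -3.24 and -3.05 in WT (1.04, SE 0.182, limma adjusted p = 0.00279) and rose by 0.79 in KO (limma adjusted p = 0.0168). Ddi2, the protease that releases NRF1, rose by 1.38 and 0.93, the small MAF gene Mafg by 1.36 and 1.42, and Maff by 5.82 (limma adjusted p = 7.04e-05) and 5.79. Ngly1, which removes sugars from NRF1, was lower in WT (-1.23, limma adjusted p = 0.0153). The ubiquitin gene Ubb rose by 0.56 in WT and 0.63 in KO, and Uba6, an activating enzyme, by 0.81 and 0.78. The 6 genes of the ubiquitin list ranged from -0.30 to 1.36 in WT and from -0.02 to 1.17 in KO.

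Of 15 genes of MHC class I processing and its regulators, 0 were called higher and 5 lower in WT, beside 13.3% and 16.6% of all genes, and 1 higher and 2 lower in KO, beside 7.38% and 9.79%. Tap2, a subunit of the peptide transporter, went from 3.48, 3.38 and 3.40 to 2.28, 2.05 and 1.94 in WT (-1.33, SE 0.203, limma adjusted p = 0.0014) and gave -0.72 in KO. Erap1, which trims peptides, gave -0.98 and -0.74, both called. Tapbp (-1.16) and Irf2 (-0.66) were lower in WT, as was Nlrc5, the class I transactivator (-1.07, limma adjusted p = 0.0469); their KO differences were -0.50, -0.20 and -0.29, not called. Irf1, an interferon regulatory factor, was called higher in KO (1.51, limma adjusted p = 0.0331), where 3.09, 2.99 and 1.97 became 3.59, 3.80 and 5.20, the last of each being the 21-week array. Tap1 and B2m were not called in either genotype. Without the 21-week arrays the list's counts were 2 higher and 7 lower in WT, beside 24.2% and 31.6% of all genes, and 3 and 7 in KO, beside 20.2% and 25.9%.

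**Figure D5:**
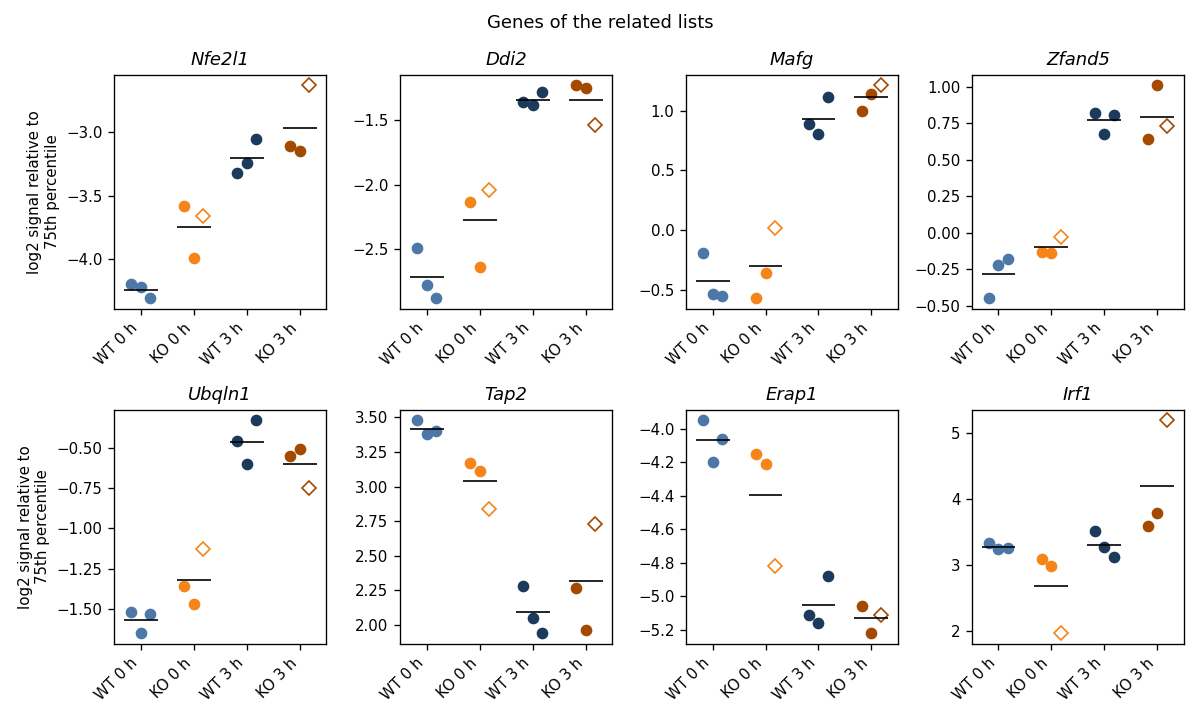
Log2 level on each array for genes of the NRF1 pathway (Nfe2l1, Ddi2, Mafg), the activator Zfand5, the ubiquitin shuttle Ubqln1 and the MHC class I genes Tap2, Erap1 and Irf1, with a line at each group mean and open diamonds for the 21-week arrays; each panel has its own axis range. The first 5 are higher on every 3 h array than on any 0 h array of their genotype, Tap2 and Erap1 are lower, and Irf1 in KO is spread by the 21-week arrays.

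Promoter letters and changes did not sort together in a single way. The 6 genes with an antioxidant response core were Psmb5, Psmb6 and Psmc6, none called in WT, and Psmd9, Psmd12 and Psme4, all called higher there. The 7 genes with an interferon response core included Psme1 and Psmg4, called lower in WT, Psmc2 and Psmd9, called higher, and Psmb3, Psmb4 and Psmd4, not called. Of the 9 genes with an Ets site, Psmc2, Psmd12, Psme3 and Psme4 were called higher in WT, and Psma6, Psmc1, Psmd6, Psmd13 and Psmg3 were not called.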

How the data were processed

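RNA from 12 samples was hybridised to 1-colour Agilent mouse arrays. Per the file headers, the authors' scanner files hold processed signal intensity written by Agilent Feature Extraction 10.7.3.1 with mm9 probe positions; the submitters' processing notes name Feature Extraction version 11 and Partek. The authors also deposited a log2 value table, whose scaling no source used here gives; it served as an alternative.

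Control spots were left out, spots of a probe were averaged, and log2 processed signals were shifted by each array's 75th percentile, taken from the 19798 probes that passed the detection flag on each of the 12 arrays. Between 42.9% and 54.58% of probes were well above background, and the number of arrays limits the precision. The brightest passing probe stood for a gene. Means of the 4 groups were fitted in limma 3.58.1 (R 4.3.3) with Benjamini-Hochberg adjustment over 18544 genes and a threshold of 0.05. In data simulated for this design, with only 50 genes changed at each size among 18544, 14 of 50 genes changed by a log2 difference of 1 were recovered, and 0 of 50 at 0.5. Every simulated array took a gene's spread averaged over the 4 groups. In the data, the median SD of all genes was 0.14 in WT_0h and WT_3h, 0.39 in KO_0h and 0.46 in KO_3h. The adjustment is also stricter when few genes change. These shares therefore do not measure the power for activation in WT, where 13.3% of all genes were called higher and 16.6% lower.

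Values on every array were given for the immunoproteasome genes, their counterparts, Psme1 to Psme3 and up to 4 called members per direction with the largest test statistic, with 2 as values only where fewer than 2 were called; further array values were chosen after they were seen. Members, classes, related lists and markers were chosen with earlier results of these data known. The alternatives changed the scaling, background correction, filter, probe per gene, source table, array weights and the arrays fitted. From the related lists, a few called genes were named, and the count over the ubiquitin list is not reported here.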

Additional observations from a re-analysis of the deposited data

How the results depend on the processing

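No paired analysis was possible because the sample labels number no replicates and name no mouse: replicate numbers used here follow accession order and pair nothing, and age alone links 1 KO array at 0 h with 1 at 3 h. Arrays of both times may share mice, which the activation tests do not use. No named call reversed under any alternative. The 25 calls named held in full with normexp background correction, with only probes above background on all 12 arrays, with array weights and without the 21-week arrays. Of these 25, 24 held with the percentile over all probes, 23 with probes averaged per gene, 21 with quantile normalization and with the deposited table, 18 with no filter, 17 with only the 2 groups compared and 11 with no shift between arrays.

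Of the 46 genes, array weights called 3 higher and 4 lower in KO at 0 h (Psmd5, Psmd9, Psmf1; Psmb10, Psmb3, Psmb8, Psme2), beside 8.32% and 3.25% of all genes, and leaving out the 21-week arrays called 1 lower (1.91%). Rises in WT numbered 1 with no shift between arrays (6.27% of all genes), 20 with array weights (28.8%), 16 without the 21-week arrays (24.2%) and 20 with only the 2 groups compared (25.7%). In KO, rises numbered 0 with no shift (1.45%), 0 with no filter (2.33%), 10 with array weights (18.9%), 10 without the 21-week arrays (20.2%) and 0 with only the 2 groups (0.232%). Falls in KO numbered 7 with no shift (11.8%), 7 with array weights (23.2%), 8 without the 21-week arrays (25.9%) and 0 with only the 2 groups (0.329%). With the percentile over all probes, the median of the genotype difference was -0.24 at 0 h and -0.24 at 3 h (all genes -0.22 and -0.17). With no shift, medians were -0.44 for genotype at 3 h (all genes -0.36), -0.25 for activation in KO (all genes -0.34) and -0.42 for the difference of activation (all genes -0.32). Without the 21-week arrays, activation in KO changed Psmb8 minus Psmb5 by -1.59 and Psmb9 minus Psmb6 by -1.91. The cause of these shifts was not tested.

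Leaving out 1 array at a time, genotype counts ranged from 0 to 0 higher and 0 to 1 lower at 0 h, and 0 to 0 in both directions at 3 h, with medians of -0.11 to 0.04 and -0.08 to 0.0. WT activation gave 6 to 11 higher and 6 to 10 lower (median 0.11 to 0.15), and KO activation 0 to 7 higher and 4 to 7 lower (median -0.03 to 0.18). The difference of activation gave 0 to 0 in both directions (median -0.11 to 0.05). The shares of all genes called in these fits are not given here, so a change in count may be one of the whole array. Psmb8 minus Psmb5 ranged from -0.59 to -0.1 at 0 h, -0.19 to 0.12 at 3 h, -1.55 to -1.47 for WT activation and -1.45 to -0.95 for KO activation. For Psmb9 minus Psmb6 these were -0.38 to 0.05, 0.01 to 0.63, -1.91 to -1.79 and -1.67 to -1.05, and for Psmb10 minus Psmb7 -0.58 to -0.34, 0.05 to 0.33, -1.65 to -1.5 and -1.07 to -0.8.

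With 3 arrays a group, small changes are not resolved. Slide cannot be told apart from genotype or from activation in WT.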
